A study of Mus musculus with 12 samples.

Results

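Glycolysis and hypoxia-inducible factor (HIF) target genes were followed in RAW264.7 cells, an immortalized Balb/c mouse line of monocyte and macrophage type, during stimulation with RANKL, the TNF-family cytokine that induces osteoclast formation. The 33 genes were taken by their symbols from the deposited expression table, which holds 23764 genes. They comprise 13 enzymes of glycolysis and lactate formation, 3 transporters, 2 regulators of glucose use, 2 enzymes of glycogen metabolism, 2 HIF subunits, 2 HIF hydroxylases, 2 collagen hydroxylases, 3 mitochondrial or mitophagy genes and 4 further HIF targets. In the table the symbols matched 35 identifiers. The reference gives 2 of these to Eno1b and Pgk1-rs7, near-identical copies of Eno1 and Pgk1, so the counts below use the 33 genes' own identifiers. All groups received RANKL, at 100 ug/ml by the labels. The treatment groups of days 1, 3 and 5 also received culture supernatant of the bacterium Lactobacillus reuteri, and the vehicle groups of the same days received MEM-alpha medium. Each of these 6 groups had 2 libraries, made from total RNA. Whether 2 libraries of a group stem from separate cultures is not labelled, so p-values here reflect library-to-library spread that may be technical. A single cell line was used, no group went without RANKL, and the labels do not list the contents of the supernatant.

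Glycolysis splits glucose to pyruvate in the cytosol, and lactate dehydrogenase turns pyruvate into lactate, which leaves the cell through monocarboxylate transporters. HIF-1, a dimer of HIF-1 alpha and ARNT, binds short hypoxia response elements and raises the transcription of most glycolytic genes. Prolyl hydroxylases mark HIF-1 alpha for destruction when oxygen is present, and inflammatory signals in macrophages can stabilize it without hypoxia. Osteoclasts and their precursors use both glycolysis and mitochondrial respiration.

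The 12 libraries fell into 2 kinds, which bears on every value below. Replicate 2 of days 3 and 5, in both arms, had 38.1% to 48.8% of reads on nuclear protein-coding genes, 25.7% to 30.6% on mitochondrial genes and 8.15% to 14.0% on the nuclear RNA Malat1. The other 8 libraries had 85.2% to 87.6%, 3.64% to 5.97% and 0.218% to 0.489%. These 4 libraries are called low-mRNA libraries here. They held 8071160 to 10724569 reads each, against 13812078 to 16781080 in the others. All 8 macrophage markers in the table were present in every group, with summed levels of 23960 to 335572 normalized counts. The lymphocyte markers summed to at most 12.9, the epithelial or endothelial markers to at most 17.0 and the fibroblast or osteoblast markers to at most 118 normalized counts. In bulk RNA, fewer cells of a type and less RNA per cell cannot be told apart.

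At days 3 and 5 the members took a smaller part of the protein-coding RNA than at day 1. The share was lower in each low-mRNA library than in the other library of its group. At day 1 the 33 genes took 2.32% and 2.21% of reads on nuclear protein-coding genes in treatment libraries, against 2.66% and 2.46% in vehicle libraries. At day 3 they took 1.72% and, in the low-mRNA library, 0.987% with treatment, against 1.63% and 0.592% with vehicle. At day 5 they took 1.81% and 1.18% with treatment, against 1.17% and 0.912% with vehicle. Both vehicle libraries were thus above both treatment libraries at day 1, and at days 3 and 5 each treatment library was above the vehicle library of the same number. The low-mRNA treatment library of day 5 held about the same share as the other vehicle library of that day. The 13 glycolytic enzymes took 86.0% to 90.0% of the members' reads in every library, so this share mainly follows them. Counting error alone (95% Wilson intervals) was at most 0.00994 percentage points on either side of these shares, and it does not cover the spread between libraries or PCR copies.

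**Figure D1:**
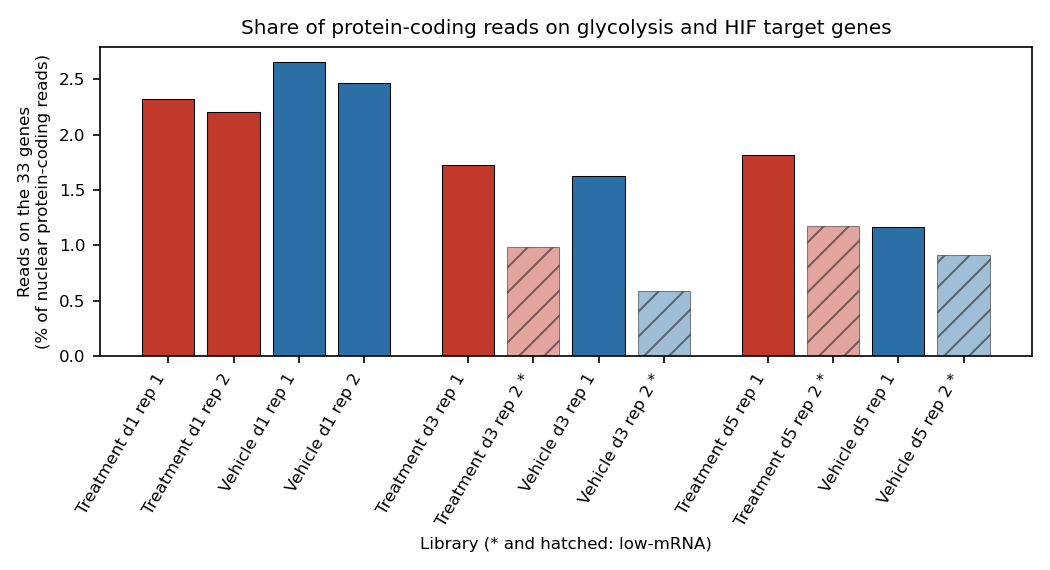
Share of nuclear protein-coding reads on the 33 genes (y axis, percent) in each of 12 libraries (x axis), treatment in red and vehicle in blue, with low-mRNA libraries hatched. Treatment is below vehicle at day 1 (2.32% and 2.21% against 2.66% and 2.46%) and above it at day 5 in same-numbered libraries (1.81% against 1.17%, and 1.18% against 0.912%).

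Values are given as normalized counts, which are reads divided by a size factor of the library, as recovered from the deposited log2 values. The test was limma on log2(normalized count + 1) over 14715 genes with a mean of at least 10 normalized counts in at least 1 group, and 32 of the 33 members passed this filter. The fit held 1 mean per group and, at days 3 and 5, a term for what the low-mRNA libraries of both arms shared. A gene was called at a Benjamini-Hochberg adjusted p under 0.05 over all genes tested. Fitted differences are on the log2 scale and understate changes of genes with low counts. The member below the filter was Egln3, which encodes the inducible prolyl hydroxylase PHD3. It had 9.2 and 1.2 normalized counts in treatment libraries of day 5 and 0 in both vehicle libraries of that day, and at most 8.6 in any other library.

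**Figure D2:**
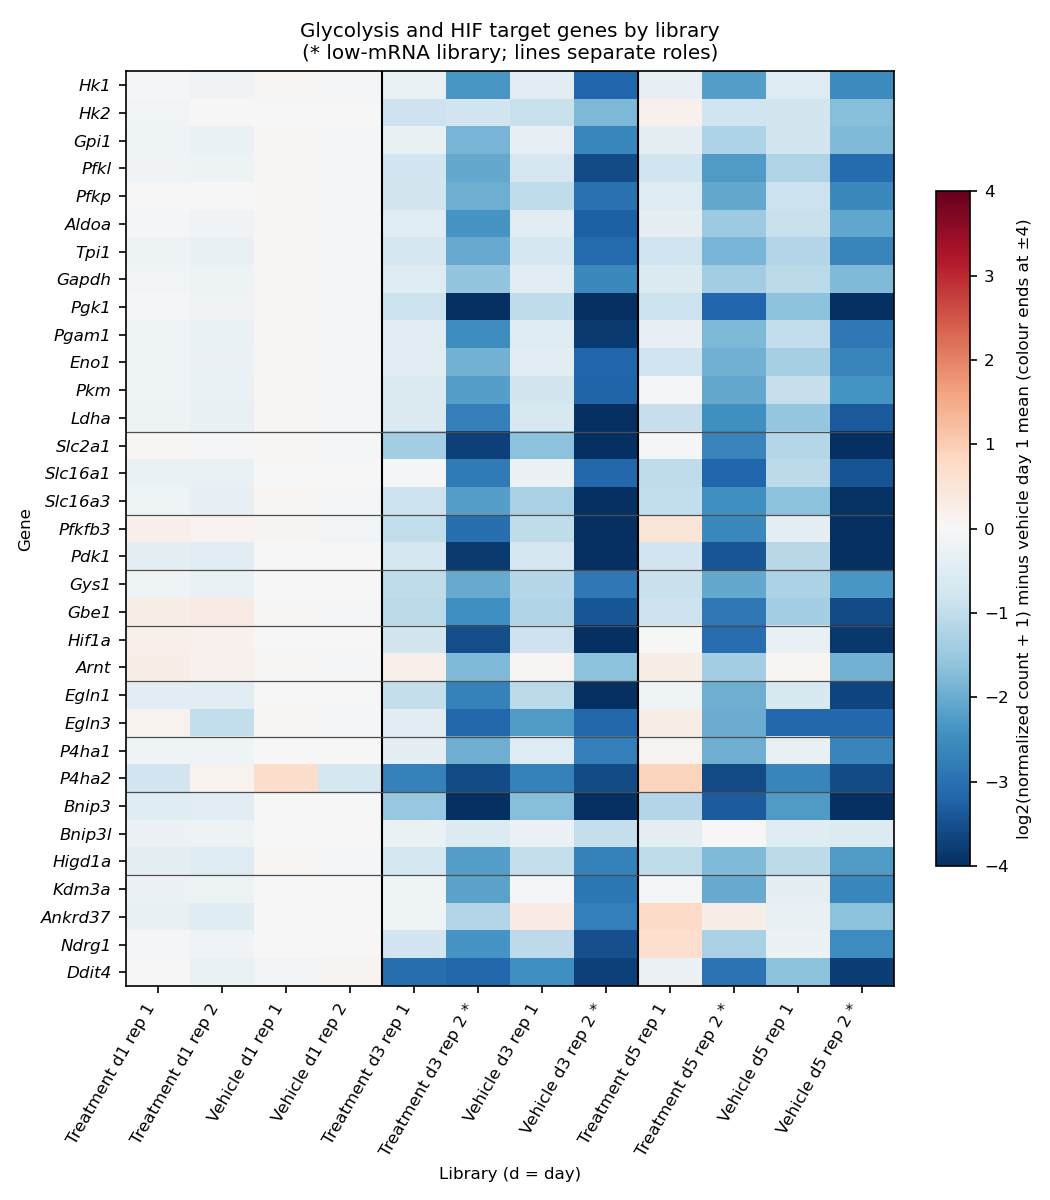
Difference of log2(normalized count + 1) from the vehicle mean of day 1 (colour, ending at 4 above and below) for the 33 genes (y axis, by role) in 12 libraries (x axis, low-mRNA libraries starred). Most tiles of days 3 and 5 are below the vehicle mean of day 1, most deeply in the low-mRNA libraries, and those of Bnip3l are among the palest there.

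In vehicle cultures the glycolysis and HIF target genes were lower at days 3 and 5 than at day 1. At day 3, 12 of 32 members fell and none rose relative to day 1, where 2.87% of all genes were called and 2.00% were lower. At day 5, 13 of 32 members fell and none rose relative to day 1, where 2.93% of all genes were called and 1.31% were lower. The median difference of the members was -0.97 at day 3 and -1.06 at day 5, against -0.08 and -0.09 over all genes. The markers of osteoclast formation moved over the same days: of 8 tested, 4 rose at day 3, led by Acp5 (5.79), Atp6v0d2 (3.72) and Ctsk (3.25). Fitted values were higher at day 3 than at day 1 for 6 of the 8 and lower for 2. Dcstamp, which was not called, had 1462 and 462 normalized counts in vehicle at day 3, against 1599 and 1409 at day 1. At day 5 the fit called Mmp9 (1.95) and Atp6v0d2 (1.34) higher and Ocstamp (-2.61) lower. Ocstamp had 54.3 and, in the low-mRNA library, 329 normalized counts in vehicle at day 5, against 186 and 219 at day 1. Ctsk had 299 and 6680 at day 5, against 170 and 170 at day 1. Acp5 had 35.9 and 1231, against 12.1 and 20.6, and neither Ctsk nor Acp5 was called at day 5. The summed level of the 9 osteoclast markers was 11213 and, in the low-mRNA library, 3137 normalized counts in vehicle at day 3, and 2703 and 15259 at day 5, against 2415 and 2285 at day 1. The sum was thus highest in the other library at day 3 and in the low-mRNA library at day 5, and the part of osteoclast formation in the members' decline was not tested.

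Glucose enters macrophages mainly through GLUT1, encoded by Slc2a1. Slc2a1 had 992 and 82.3 normalized counts in vehicle libraries of day 3 and 1409 and 182 at day 5, against 3257 and 2978 at day 1. Each later vehicle library was thus below each vehicle library of day 1. Slc2a1 fell by 1.95 (SE 0.27, limma adjusted p = 0.00424) at day 3 and by 1.23 (SE 0.27, limma adjusted p = 0.04) at day 5. Lactate is exported by MCT4, encoded by Slc16a3, and moved in either direction by MCT1, encoded by Slc16a1. Slc16a3 had 1732 and 243 normalized counts in vehicle libraries of day 3 and 1355 and 273 at day 5, against 4466 and 4057 at day 1. It fell at both days, with fitted differences of -1.67 (SE 0.33, limma adjusted p = 0.0277) at day 3 and -1.86 (SE 0.33, limma adjusted p = 0.0182) at day 5. Slc16a1 had 1854 and 247 normalized counts at day 3 and 1059 and 198 at day 5, against 2216 and 2173 at day 1. The first of its day 3 libraries lay close to day 1, and it was called only at day 5, where it fell by 1.11 (SE 0.16, limma adjusted p = 0.00743).

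Among the 13 glycolytic enzymes 3 fell at day 3 and 5 fell at day 5. Pgk1, phosphoglycerate kinase, makes the first ATP that the pathway returns. It had 17492 and 932 normalized counts in vehicle libraries of day 3 and 11170 and 1349 at day 5, against 36827 and 33265 at day 1. Pgk1 fell at both days, with differences of -1.25 (SE 0.27, limma adjusted p = 0.0372) at day 3 and -1.83 (SE 0.27, limma adjusted p = 0.00816) at day 5, and those of the copy gene Pgk1-rs7 were -1.27 and -1.78. Since reads of such a pair may be split or shared, the 2 genes are not separate evidence, and other abundant glycolytic genes also have pseudogenes. Ldha, the lactate dehydrogenase A subunit, had 8275 and 2384 normalized counts in vehicle libraries of day 5, against 24894 and 23668 at day 1. It fell by 1.62 (SE 0.28, limma adjusted p = 0.0157) at day 5, and its values at day 3 were 15517 and 1421. The other enzymes that fell at day 5 were Tpi1, triosephosphate isomerase (-1.28), Eno1, enolase 1 (-1.38), and Pfkp, the platelet phosphofructokinase (-0.91). Pfkp had 1714 and 435 normalized counts in vehicle libraries of day 3, against 3563 and 3315 at day 1, and fell by 1.20 (SE 0.20, limma adjusted p = 0.0125). Hk2, the inducible hexokinase that phosphorylates glucose, had 951 and 509 normalized counts in vehicle libraries of day 3 and 1056 and 541 at day 5, against 1789 and 1741 at day 1. It fell by 1.13 (SE 0.23, limma adjusted p = 0.0273) at day 3 and was not called at day 5.

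Both glycogen genes were called at both days. Gys1, glycogen synthase 1, had 568 and 172 normalized counts in vehicle libraries of day 3 and 528 and 249 at day 5, against 1268 and 1250 at day 1. The differences were -1.33 (SE 0.20, limma adjusted p = 0.00721) at day 3 and -1.24 (SE 0.20, limma adjusted p = 0.0142) at day 5. Gbe1, the glycogen branching enzyme, had 384 and 82.3 normalized counts at day 3 and 347 and 73.5 at day 5, against 921 and 850 at day 1. Its differences were -1.41 (SE 0.23, limma adjusted p = 0.0101) and -1.40 (SE 0.23, limma adjusted p = 0.0137). Neither gene's later values overlapped those of day 1. Of the regulators, Pdk1, the kinase that keeps pyruvate out of the citrate cycle, had 1428 and 175 normalized counts at day 5, against 3085 and 3014 at day 1, and fell by 1.19 (SE 0.25, limma adjusted p = 0.0323). Its day 3 values were 1924 and 104. Pfkfb3, which makes the activator fructose 2,6-bisphosphate, had 228 and 13.2 at day 3 and 353 and 25.4 at day 5, against 501 and 428 at day 1, and was not called.

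The HIF system itself moved less evenly. Hif1a had 1316 and 131 normalized counts in vehicle libraries of day 3 and 1913 and 161 at day 5, against 2358 and 2311 at day 1. It fell by 0.95 (SE 0.20, limma adjusted p = 0.0312) at day 3 and was not called at day 5, and its partner Arnt was not called at either day. Bnip3, a mitophagy receptor of the outer mitochondrial membrane, had 1548 and 45.6 normalized counts at day 3 and 1035 and 131 at day 5, against 4989 and 5039 at day 1. It fell at both days, with differences of -2.27 (SE 0.45, limma adjusted p = 0.0265) at day 3 and -2.48 (SE 0.45, limma adjusted p = 0.019) at day 5. Higd1a, a hypoxia-induced protein of the inner mitochondrial membrane, had 252 and 73.5 normalized counts at day 3 and 236 and 98.9 at day 5, against 507 and 462 at day 1. Its differences were -1.01 (SE 0.22, limma adjusted p = 0.037) and -1.16 (SE 0.22, limma adjusted p = 0.0228). Bnip3l, the related receptor NIX, had 2254 and 1357 normalized counts at day 3 and 1891 and 1818 at day 5, against 2618 and 2672 at day 1, and was not called. Both the stress-induced gene Ndrg1 and Ddit4, which encodes the mTORC1 inhibitor REDD1, fell at day 3 and were not called at day 5. Ndrg1 had 1359 and 241 normalized counts at day 3 and 2358 and 487 at day 5, against 2751 and 2838 at day 1, with a day 3 difference of -1.26 (SE 0.22, limma adjusted p = 0.0152). Ddit4 had 15.6 and 5.9 at day 3 and 28.5 and 5.7 at day 5, against 83.3 and 97.8 at day 1, with a day 3 difference of -2.75 (SE 0.41, limma adjusted p = 0.0064).

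These calls were not kept in all alternative fits. With 6 group means and no low-mRNA term, 0 members and 0 genes in all were called at either day. With the replicate number as a block in place of that term, 0 members and 0 genes in all were called at either day, and with a block by day 2 members were called lower at day 3 (0.571% of all genes) and 0 at day 5. Without replicate 1 of vehicle day 1, 0 members were called at either day. Without replicate 2 of vehicle day 1, 1 member was called at day 3 and 0 at day 5, and without replicate 1 of vehicle day 5, 0 were called at day 5. Without the other vehicle library or either treatment library of day 5, fewer members were called at day 5 than over all 12 libraries. Without either treatment library of day 1, fewer were called at both days. Over all genes, too, fewer were called in each of these fits with a library of day 1 or day 5 left out. With any 1 library left out, the members' median difference ranged from -1.7642 to -0.7168 at day 3. At day 5 it ranged from -1.1225 to -1.0045. The counts were higher in the 8 libraries that are not low-mRNA, at 28 members lower at day 3 (10.0% of all genes) and 29 at day 5 (15.0% of all genes), and these held each of the 12 and 13 members called. There each later group has 1 library and is assumed to vary like the pairs of day 1. With each library rescaled by its median ratio over nuclear protein-coding genes, 21 members were lower at day 3 (3.75% of all genes) and 22 at day 5 (4.97% of all genes). Without replicate 1 of vehicle day 3, 28 were lower at day 3 (13.1% of all genes). Without a library of day 3, the count at day 5 was 23 each time, where 5.70%, 5.71%, 5.68% and 5.67% of all genes were lower without replicates 1 and 2 of treatment and replicates 1 and 2 of vehicle. The median difference of the members was negative in all these fits.

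**Figure D3:**
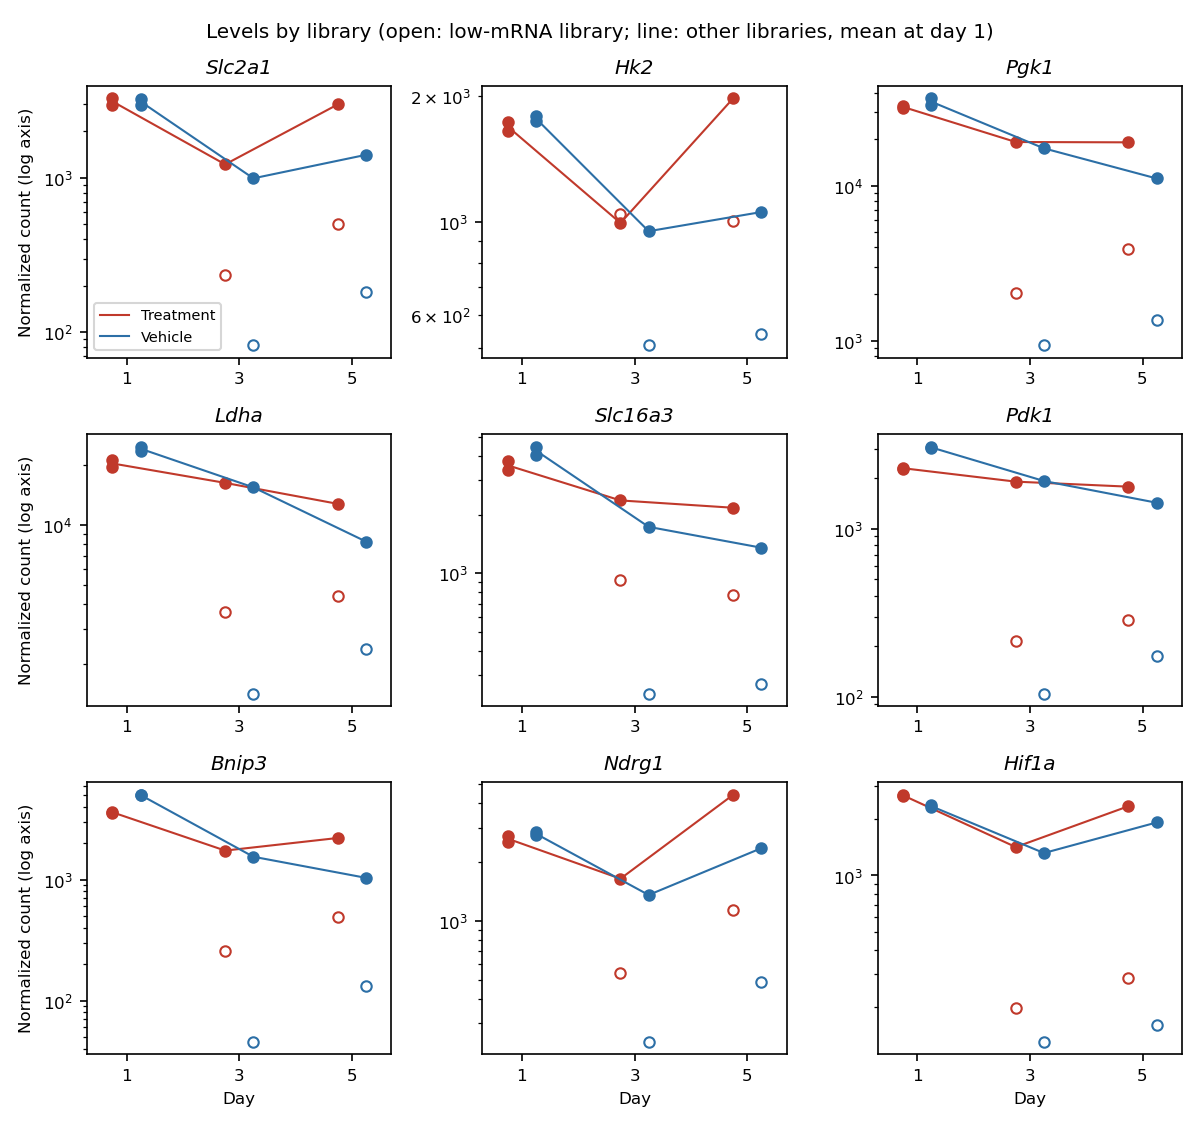
Normalized counts (y axis, log scale) of 9 members at days 1, 3 and 5 (x axis) in each library, treatment in red and vehicle in blue; open circles are low-mRNA libraries and lines join the other libraries (mean of 2 at day 1). At day 5 each red point lies above the blue point of its kind, as for Slc2a1 (2989 against 1409, and 499 against 182), and in vehicle the filled points of days 3 and 5 lie below those of day 1.

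Promoters are shown for Slc16a1, Pgk1, Ldha and Slc16a3, the 4 members with the smallest p among those called in vehicle at day 5 whose promoter holds ACGTG, the core of the hypoxia response element. They are RefSeq sequences of build GRCm38.p6, each from 250 bases before to 50 after the transcription start on the plus strand, with ACGTG and the second core form GCGTG in capitals on either strand (CACGT and CACGC are their reverse). CACGTG holds ACGTG on both strands and counts as 2. The positions are chr3:104638414-104638713 for Slc16a1, chrX:106186850-106187149 for Pgk1, chr7:46845554-46845853 for Ldha and chr11:120948817-120949116 for Slc16a3.
Slc16a1: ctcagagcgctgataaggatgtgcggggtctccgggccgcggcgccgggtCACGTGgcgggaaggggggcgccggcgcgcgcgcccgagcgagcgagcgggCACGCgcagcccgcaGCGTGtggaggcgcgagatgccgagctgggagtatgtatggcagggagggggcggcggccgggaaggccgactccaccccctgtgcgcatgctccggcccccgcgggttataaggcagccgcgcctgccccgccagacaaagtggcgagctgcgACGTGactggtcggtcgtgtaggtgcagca
Pgk1: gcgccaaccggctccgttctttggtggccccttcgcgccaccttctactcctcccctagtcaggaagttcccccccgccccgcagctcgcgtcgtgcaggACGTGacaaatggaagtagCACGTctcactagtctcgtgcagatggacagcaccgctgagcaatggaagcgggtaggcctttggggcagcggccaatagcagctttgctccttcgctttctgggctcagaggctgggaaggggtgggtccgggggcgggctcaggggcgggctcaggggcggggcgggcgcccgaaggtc
Ldha: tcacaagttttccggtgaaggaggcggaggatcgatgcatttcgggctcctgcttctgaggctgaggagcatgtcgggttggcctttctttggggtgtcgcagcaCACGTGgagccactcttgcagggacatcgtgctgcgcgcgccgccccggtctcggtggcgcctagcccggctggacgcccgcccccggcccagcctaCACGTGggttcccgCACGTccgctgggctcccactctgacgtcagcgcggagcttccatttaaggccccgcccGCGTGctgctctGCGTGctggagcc
Slc16a3: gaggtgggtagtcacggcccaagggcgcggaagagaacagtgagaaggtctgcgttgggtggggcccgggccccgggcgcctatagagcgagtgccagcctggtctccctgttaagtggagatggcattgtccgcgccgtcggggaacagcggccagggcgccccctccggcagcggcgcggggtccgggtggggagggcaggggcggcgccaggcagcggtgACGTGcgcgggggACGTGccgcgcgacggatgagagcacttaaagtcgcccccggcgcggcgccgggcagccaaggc
Ldha held 5 ACGTG and 2 GCGTG matches, Slc16a1 held 3 and 2, and Pgk1 and Slc16a3 held 2 ACGTG matches each and no GCGTG. Of the 33 members 31 had a promoter in the RefSeq table, and Bnip3l and Ndrg1 had none matched. Of these 31 genes, 21 had ACGTG, 20 had GCGTG and 27 had either in at least 1 of their promoters. Counted by promoter, ACGTG was in 54.8% of 42 member promoters, against 19.6% of all 32851 promoters of the same length, and either form was in 76.2%, against 43.8%. The members include genes known as HIF targets, so this share describes how they were chosen as well. A match is not shown to be a bound site.

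At day 5 the members were higher with supernatant than with vehicle in both pairs of same-numbered libraries, but none passed the test over all 12 libraries. By limma 0 of 32 members were called, where 0.408% of all genes were called and 0.279% were higher. An unadjusted p under 0.05 was found for 22 members and for 1619 of the 14715 genes tested. In the replicate 1 pair 32 of 32 members were higher with treatment, with a median difference of 0.50, where 36.0% of all genes were higher and their median was -0.09. In the low-mRNA pair 31 were higher, with a median of 0.72, where 68.2% of all genes were higher and their median was 0.23, and P4ha2 was at 0 in both. The members higher in both pairs numbered 31 of 32, against 26.8% of all genes. The fitted median was 0.61 for the members and 0.07 for all genes.

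Among the transporters at day 5, Slc2a1 had 2989 and 499 normalized counts in treatment libraries of day 5, against 1409 and 182 in vehicle libraries, a fitted difference of 1.27 (SE 0.24, limma adjusted p = 0.061). Slc16a3 had 2170.0 and 777 normalized counts with treatment, against 1355 and 273 with vehicle, with a difference of 1.09 (SE 0.30, limma adjusted p = 0.163). For both genes the treatment library was the higher within each pair, while the low-mRNA treatment library was below the other vehicle library. Slc16a1 stayed nearest to vehicle among the transporters, at 1091 and 242 normalized counts with treatment and 1059 and 198 with vehicle.

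Hk2 had 1971 and 1005 normalized counts in treatment libraries of day 5, against 1056 and 541 in vehicle libraries, with a difference of 0.90 (SE 0.20, limma adjusted p = 0.095). The pair differences of Hk2 were 0.90 and 0.89, so both kinds of library gave about the same value. Pgk1 had 19130.3 and 3882 normalized counts with treatment, against 11170 and 1349 with vehicle, with a difference of 1.15 (SE 0.24, limma adjusted p = 0.076). Ldha had 12811 and 4403 with treatment, against 8275 and 2384 with vehicle, with a difference of 0.76 (SE 0.25, limma adjusted p = 0.262). Across the 13 glycolytic enzymes the median difference was 0.60, from 0.28 for the constitutive hexokinase Hk1 to 1.15 for Pgk1. Pfkfb3 had 649 and 77.0 normalized counts with treatment, against 353 and 25.4 with vehicle, with a difference of 1.22 (SE 0.37, limma adjusted p = 0.216). Pdk1 had 1780 and 286 with treatment, against 1428 and 175 with vehicle, with a difference of 0.51 (SE 0.22, limma adjusted p = 0.422). Both regulators were higher with treatment in both pairs.

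Other enzymes showed the same order within each pair. Pkm, pyruvate kinase, had 55624 and 13720 normalized counts in treatment libraries of day 5, against 30184 and 11022 in vehicle libraries, with a difference of 0.60 (SE 0.23, limma adjusted p = 0.359). Pgam1, phosphoglycerate mutase 1, had 10373 and 3791 with treatment, against 6665 and 1789 with vehicle, with a difference of 0.86 (SE 0.25, limma adjusted p = 0.192). Gapdh, glyceraldehyde-3-phosphate dehydrogenase and a common reference gene, had 23930.1 and 13640.3 with treatment, against 17046 and 10501 with vehicle, with a difference of 0.43. Gapdh was thus among the genes that were higher with treatment in both pairs here, and in vehicle it had 26302 and 6070 at day 3, against 37756 and 34092 at day 1. Eno1 had 15789 and 7242 with treatment at day 5, against 10815 and 4384 with vehicle, and Tpi1 had 7934 and 3765 with treatment, against 5996 and 2191 with vehicle.

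Ndrg1 had the smallest p of the members, with 4423 and 1139 normalized counts in treatment libraries of day 5, against 2358 and 487 in vehicle libraries. Its difference was 1.06 (SE 0.20, limma adjusted p = 0.058). Bnip3 had 2213 and 494 with treatment, against 1035 and 131 with vehicle, with a difference of 1.50 (SE 0.40, limma adjusted p = 0.157). Ankrd37, a small ankyrin-repeat protein induced by HIF-1, had 362 and 250.1 normalized counts with treatment, against 171 and 67.8 with vehicle. For Ankrd37 both treatment libraries were above both vehicle libraries, with a difference of 1.47 (SE 0.39, limma adjusted p = 0.155). P4ha2, a subunit of collagen prolyl 4-hydroxylase, had 21.1 and 0 normalized counts with treatment, against 0.9 and 0 with vehicle. Its treatment value therefore came from 1 library. Hif1a had 2334 and 284 normalized counts with treatment, against 1913 and 161 with vehicle, a smaller difference of 0.55 (SE 0.18, limma adjusted p = 0.24). Egln1, which encodes the prolyl hydroxylase PHD2 and is itself a HIF target, had 618 and 180 with treatment, against 451 and 53.7 with vehicle, with a difference of 1.09 (SE 0.34, limma adjusted p = 0.231).

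**Figure D4:**
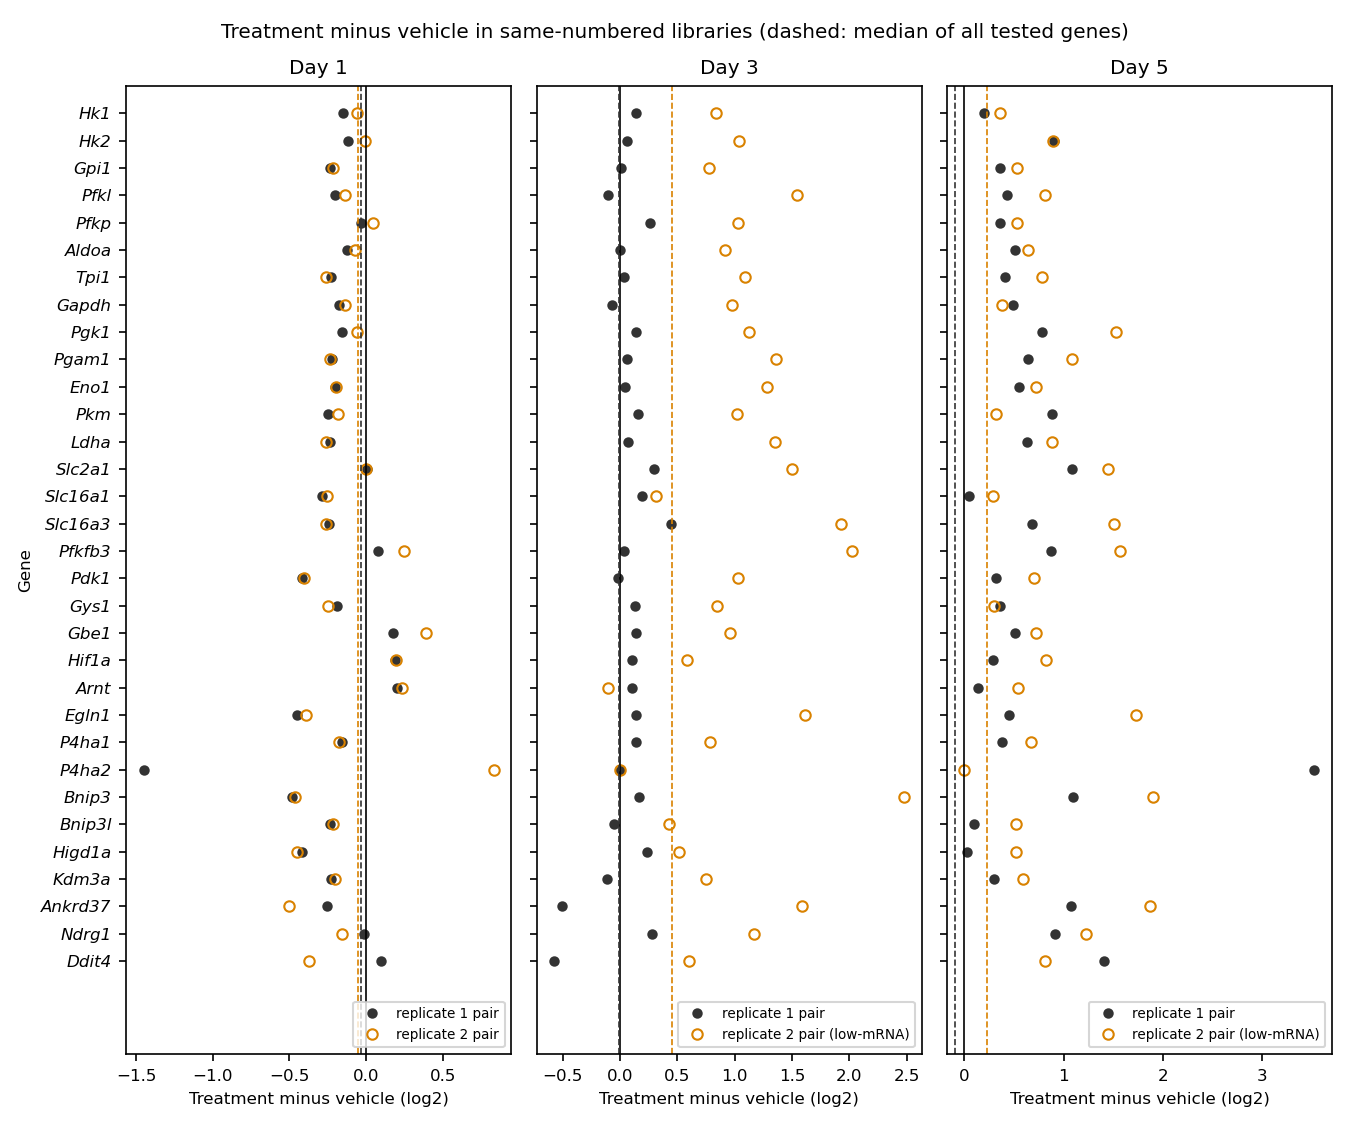
Treatment minus vehicle of log2(normalized count + 1) (x axis) for the 32 tested members (y axis) at days 1, 3 and 5, filled for the replicate 1 pair and open for the replicate 2 pair, which is low-mRNA at days 3 and 5; dashed lines mark the median of all tested genes in each pair. At day 5 the 32 filled points lie right of 0 with a median of 0.50, and at day 1 the points lie mostly left of 0, with medians of -0.20 and -0.19.

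Several alternative fits called members with treatment at day 5, and the cause of that difference was not tested. In the 8 libraries that are not low-mRNA, 16 members were higher with treatment (2.54% of all genes), led by Bnip3 (1.10), Hk2 (0.90), Ndrg1 (0.91) and Slc2a1 (1.08), again with 1 library per arm at that day. With median-ratio rescaling 10 were higher (1.50% of all genes), with quantile normalization 10 (1.69%), with limma-voom 7 (1.58%) and in a fit of the 4 libraries of day 5 alone 11 (1.37%). The calls of the 8-library and the rescaled fit shared 9 genes, which is 9 of 16 and 9 of 10. Without a library of day 3, 16 members were higher at day 5 each time, and so were 2.08%, 2.02%, 2.11% and 2.02% of all genes without replicates 1 and 2 of treatment and replicates 1 and 2 of vehicle. Without any 1 library of day 1 or day 5, 0 were called. Over all genes, fewer were called without a library of day 1 or replicate 2 of day 5 than with all 12 libraries. More were called without replicate 1 of day 5 in either arm. The median of the members was positive in each of these fits, and rescaling moved it to 0.52.

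At day 3 the supernatant and vehicle libraries were close in the replicate 1 pair and apart in the low-mRNA pair. None of the 32 members was called by limma, where 0.0680% of all genes were called. Of the members 21 had an unadjusted p under 0.05, as did 2113 of the 14715 genes tested. limma-voom, rescaling and the 8-library fit also called 0. In the replicate 1 pair 25 members were higher with treatment, with a median of 0.09, against -0.01 over all genes. In the low-mRNA pair 30 were higher, with a median of 1.02, against 0.46 over all genes. Bnip3, for example, had 1740 and 258 normalized counts with treatment, against 1548 and 45.6 with vehicle, so its pair differences were 0.17 and 2.48. Slc16a3 had 2366 and 926 normalized counts with treatment, against 1732 and 243 with vehicle, a fitted difference of 1.19 (SE 0.30, limma adjusted p = 0.197), and had the smallest p of the members at this day. Rescaling took the fitted median of all genes from 0.23 to -0.02 and that of the members from 0.54 to 0.29. Without replicate 1 of treatment day 3 or replicate 1 of vehicle day 3, only the low-mRNA pair was left to compare within that day. The members' median was then 1.02, against 0.46 over all genes.

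At day 1, where neither arm had a low-mRNA library, most members were slightly lower with supernatant in both pairs, and none passed the test. By limma 0 of 32 were called, where 0.0408% of all genes were called, and limma-voom also called 0. Only 1 member had an unadjusted p under 0.05, as did 689 of the 14715 genes tested. In each of the 2 pairs 26 of 32 were lower, 24 of them in both, with medians of -0.20 and -0.19, against -0.03 and -0.05 over all genes. Bnip3 had 3562 and 3659 normalized counts with treatment, against 4989 and 5039 with vehicle, a fitted difference of -0.47 (SE 0.40, limma adjusted p = 1). Pdk1 had 2306 and 2279 with treatment, against 3085 and 3014 with vehicle, with a difference of -0.41. Egln1 had 516 and 520.1 with treatment, against 705 and 683 with vehicle, with a difference of -0.42, and Slc16a1 had 1815 and 1823 with treatment, against 2216 and 2173 with vehicle, with a difference of -0.27. For these 4 genes both treatment libraries were below both vehicle libraries, and they were the 4 members called lower in the 8-library fit (2.62% of all genes) and in the fit of the 4 libraries of day 1 alone (2.53% of all genes). Slc2a1 had 3271 and 2977 with treatment and 3257 and 2978 with vehicle, so its ranges overlapped. Hif1a had 2684 and 2646 with treatment, against 2358 and 2311 with vehicle, and Gbe1 had 1042 and 1113 with treatment, against 921 and 850 with vehicle. Hif1a and Gbe1, with Arnt and Pfkfb3, were the 4 members higher in both pairs.

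The difference between treatment and vehicle at day 5 was compared with that at day 1 in the same fit. It was larger at day 5 for 32 of 32 members, with a median change of 0.83, against 0.11 over all genes. By limma 0 members and 0% of all genes were called, and limma-voom called 0 members. The limma p was under 0.05 before adjustment for 21 members and for 563 of the 14715 genes tested. In the 8-library fit 6 members were called, all larger at day 5 (0.272% of all genes were called in that direction), which were Bnip3 (1.57), Hk2 (0.96), Ndrg1 (0.99), Pdk1 (0.73), Egln1 (0.87) and Slc2a1 (1.08). The F test over both changes between days called 0 members and 0% of all genes, with 18 members and 701 of the 14715 genes at an unadjusted p under 0.05. Without replicate 1 of treatment day 3 or of vehicle day 3, that test called 24 members each time, where 6.44% and 6.40% of all genes were called.

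Members did not all differ alike between the kinds of library. From the other to the low-mRNA library of a group, the members' median difference was -1.59 in treatment and -2.73 in vehicle at day 3, and -1.68 in treatment and -1.95 in vehicle at day 5. The medians over all genes were -1.20 and -1.71 at day 3, and -0.92 and -1.28 at day 5. Bnip3l was the least lowered member in 3 of these 4 groups, from -0.73 in vehicle at day 3 to 0.36 in treatment at day 5, and in the fourth it was Hk2, at 0.07 in treatment at day 3. These differences have 1 pair of libraries each and no test.

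Ratios of reads between related genes do not depend on the size factor, and they are compared here between libraries only, since the genes differ in length. The ratio of Bnip3 to Bnip3l reads was 1.60 and 1.59 in treatment libraries of day 1, against 1.91 and 1.89 in vehicle libraries. At day 3 it was 0.799 and, in the low-mRNA library, 0.142 with treatment, against 0.687 and 0.0336 with vehicle. At day 5 it was 1.09 and 0.190 with treatment, against 0.547 and 0.0723 with vehicle. The lowest of these, 0.0336, came from 31 Bnip3 and 923 Bnip3l reads, with a 95% Wilson interval of 0.0235 to 0.0479. The ratio was thus lower with treatment at day 1 and higher with treatment in each same-numbered pair of days 3 and 5. The ratio of Slc16a3 to Slc16a1, the lactate exporter and the bidirectional carrier, was 2.08 and 1.85 with treatment at day 1, against 2.02 and 1.87 with vehicle. At day 5 it was 1.99 and 3.22 with treatment, against 1.28 and 1.38 with vehicle, and the groups did not overlap. The day 3 values were 1.12 and 3.02 with treatment, against 0.934 and 0.982 with vehicle. The ratio of Hk2 to Hk1 was 0.774 and 0.844 with treatment at day 1, against 0.757 and 0.814 with vehicle. At day 5 it was 1.10 and 2.06 with treatment, against 0.675 and 1.42 with vehicle. At day 3 the ratio of Hk2 to Hk1 was 0.537 and 2.34 with treatment, against 0.565 and 2.05 with vehicle, so it differed far more between kinds of library than between arms. Ratios of Pfkp to Pfkl, the platelet and liver phosphofructokinases, lay between 1.03 and 1.96 in the 12 libraries. With 2 libraries per group, no exact test of these ratios can reach 0.05.

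**Figure D5:**
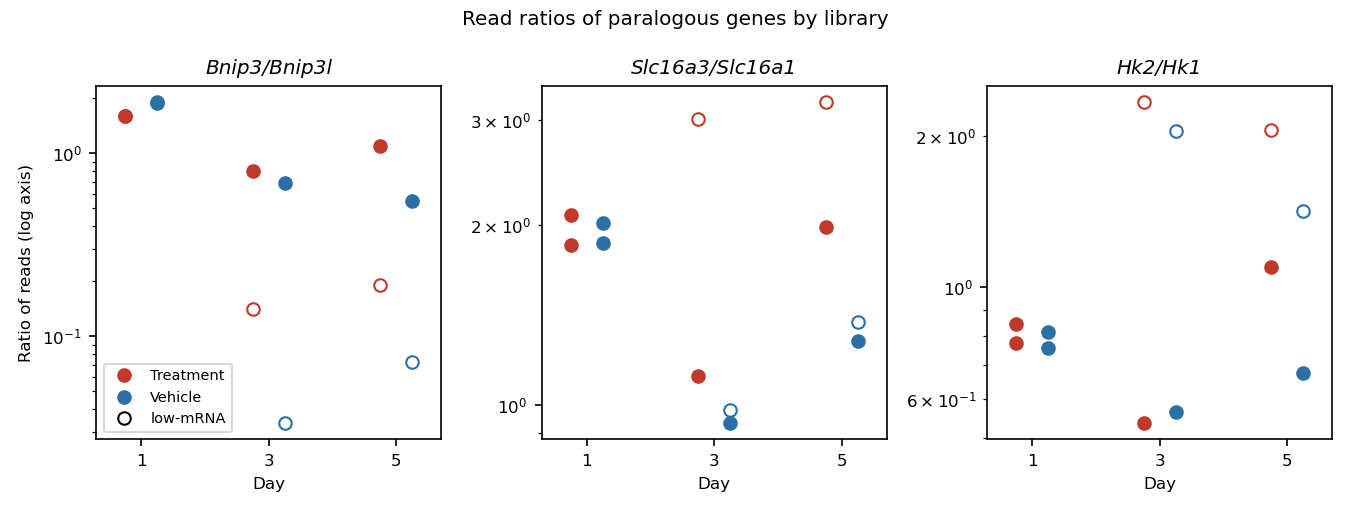
Ratio of reads (y axis, log scale) of Bnip3 to Bnip3l, Slc16a3 to Slc16a1 and Hk2 to Hk1 at days 1, 3 and 5 (x axis) in each library, treatment in red and vehicle in blue, open circles for low-mRNA libraries. At day 5 both treatment values of Slc16a3 to Slc16a1 (1.99 and 3.22) lie above both vehicle values (1.28 and 1.38), and Bnip3 to Bnip3l is lowest in the low-mRNA libraries.

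Among 18 other hypoxia genes that were tested, 2 rose with treatment at day 5 and none fell, where 0.279% of all genes were higher, and their median was 0.45, against 0.07 over all genes. They were Ero1l, an oxidoreductase of protein folding in the endoplasmic reticulum, by 1.39 (SE 0.16, limma adjusted p = 0.00732) and Vegfa, the vascular growth factor, by 2.37 (SE 0.41, limma adjusted p = 0.0462). Vegfa had 757 and 243 normalized counts in treatment libraries of day 5, against 262 and 25.4 in vehicle libraries. Adm, the vasodilator adrenomedullin, had 114 and 13.0 with treatment, against 4.6 and 2.8 with vehicle, with a difference of 3.12 (SE 0.75, limma adjusted p = 0.111). At day 1 Adm was lower with treatment, at 34.4 and 37.6 normalized counts, against 104.5 and 91.6 with vehicle, with a difference of -1.42 (SE 0.75). By limma none of these 18 genes was called with treatment at day 1 or 3, and limma-voom also called 0 at both days. At these days 1 and 8 of them had an unadjusted p under 0.05, as did 689 and 2113 of the 14715 genes tested. In vehicle, 5 of the 18 fell at day 3 relative to day 1 (2.00% of all genes were lower) and 4 at day 5 (1.31% of all genes were lower), with Ak4, a mitochondrial adenylate kinase, at -2.44 and -2.24 and Fam162a, a HIF-responsive mitochondrial protein, at -1.45 and -1.69. Of 7 genes of the pentose phosphate pathway, which branches off glycolysis, Pgd (-1.20, limma adjusted p = 0.0182) fell in vehicle at day 5 (1.31% of all genes were lower). There 4 of the 7 had an unadjusted p under 0.05, the most in any comparison, as did 2683 of the 14715 genes tested. limma-voom called 2 in vehicle at day 3 (5.38% of all genes), 4 in vehicle at day 5 (7.73%) and 0 with treatment. Of 4 tested genes that respond to glucose or sense it, Arrdc4 (1.92, limma adjusted p = 0.0341) rose in vehicle at day 3, where 2.87% of all genes were called. limma-voom called 1 of the 4 there (5.38% of all genes). It also called 1 with treatment at day 1 (0.584%) and 1 at day 5 (1.96%). Txnip, the thioredoxin-interacting protein that lowers glucose uptake, had 2619 and 524 normalized counts in treatment libraries of day 5, against 4686 and 1770 in vehicle libraries. Its difference was -1.30 (SE 0.27, limma adjusted p = 0.076). At day 1 Txnip had 1274 and 1279 normalized counts with treatment, against 3182 and 2999 with vehicle, a difference of about the same size (-1.27, SE 0.27, limma adjusted p = 0.222). Its fitted day 3 difference was -0.05, from pair differences of -0.66 in replicate 1 and 0.55 in the low-mRNA pair. The day 3 counts were 3647 and 587 with treatment, against 5766 and 400 with vehicle.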

How the data were processed

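Gene expression came from TruSeq RNA sequencing of total RNA, in 12 libraries grouped by their titles. As deposited by the authors, the single table holds log2 expression, per the file headers. TopHat2, SAMtools, DESeq2 and build mm9 are named in the submitters' processing notes, without versions or a counting step. No value lay below 3. Subtracting an offset of 8 on the linear scale turned 100% of values into whole multiples of 1 step (within 0.02 reads), which gave reads and size factors, with 8071160 to 16781080 reads per library. The table's 24757 rows included 993 repeats, which were dropped.

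The fit used limma 3.58.1 in R 4.3.3 (trended prior, two-sided) on log2(normalized count + 1) over 14715 genes with a mean of at least 10 in at least 1 group. It had 6 group means, 1 low-mRNA term at each of days 3 and 5 (libraries with at most 60% of reads on nuclear protein-coding genes) and 4 residual degrees of freedom. Vehicle differences between days therefore refer to the level of the other libraries, with the low-mRNA shift averaged over both arms. Benjamini-Hochberg adjustment ran over all genes tested. The script was tested on simulated counts with known treatment changes. The fit with the low-mRNA terms recovered most of them, with a share of false calls above its nominal level at days 3 and 5. The fit with group means alone recovered none. In the simulation both arms of a day shared the low-mRNA shift, as the low-mRNA terms assume, and known changes were placed between arms only. It therefore cannot decide between these fits, and it does not cover the vehicle comparisons between days.

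The members, the other lists, the low-mRNA term and the rule for named genes were chosen with earlier results of these data known. By that rule, up to 8 called members with the smallest p per comparison got full statistics, values were given in any case for Slc2a1, Hk2, Ldha, Pfkfb3, Pdk1, Hif1a, Egln3, Ankrd37, Bnip3 and P4ha2, and of the other lists up to 3 called genes were named, besides Vegfa, Adm and Txnip. The other members named were chosen after their values were seen. No strand setting is stated, so overlapping genes may share reads. Promoters came from RefSeq (GRCm38.p6), a later build than mm9, and no coordinates were converted. Alternatives were no low-mRNA term, the 8 other libraries, a replicate block, no filter, pseudocounts of 0.5 and 5, the deposited values as they are, quantile normalization, median-ratio rescaling, limma-voom on recovered reads, the libraries of a day alone, and each library left out. Tables and figures were made in Python 3.11.15 (pandas 2.3.3, numpy 2.4.6, matplotlib 3.10.9).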

Additional observations from a re-analysis of the deposited data

How the results depend on the processing

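The direction of the members' median was the same in every alternative run. Counts of members called were not. For treatment against vehicle at day 1 (0 called), 4 were called without the low-mRNA libraries and 4 with the libraries of that day alone, and rescaling gave a median of -0.1857. At day 5 (0 called), 10 were called with quantile normalization (2.79% of all genes in either direction), 10 with rescaling (2.41%) and 7 with limma-voom (1.96%). The libraries of that day alone gave 11 (1.61%), a pseudocount of 5 gave 3 (0.89%) and the deposited log2 values gave 3 (0.979%). Without the low-mRNA libraries the median was 0.50. In vehicle at day 3 (12 called), the count was 0 with no low-mRNA term (0% of all genes) and 2 with no filter (0.505%). It was 24 with quantile normalization (7.63%) and 21 with rescaling (7.01%), and the median without the low-mRNA libraries was -0.72. In vehicle at day 5 (13 called), it was 0, 1, 29, 23 and 22 under the same settings and 21 with limma-voom. The change of the treatment difference between days 5 and 1 (0 called) gave 6 without the low-mRNA libraries, and the F test over days (0 called) gave 1. The cause of these changes was not tested.

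Leaving out 1 library at a time gave 0 to 26 calls for treatment at day 3, 0 to 16 at day 5, 0 to 28 in vehicle at day 3, 0 to 23 in vehicle at day 5, and 0 to 24 in the F test. The median at day 1 ranged over these fits from -0.2309 to -0.1627.

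With the replicate number as a replicate block in place of the low-mRNA terms, 0 members were called in vehicle at day 3 and 0 at day 5, and with a block by day 2 and 0. Deviations of same-numbered libraries correlated at 0.78 to 0.90 among the groups of days 3 and 5 and at 0.05 to 0.09 where a day 1 group was involved. The low-mRNA libraries share a number at days 3 and 5, and since not every pair exceeded 0.1 the number was not taken to pair the samples. All 25 member calls of the 2 vehicle comparisons held under rescaling, quantile normalization, limma-voom, both pseudocounts, the deposited values and without the low-mRNA libraries. No filter kept 3 of the 25. As a share of all reads, the 33 genes took 1.59% and 0.574% with treatment at day 5, against 1.02% and 0.374% with vehicle, in the same order within pairs as of protein-coding reads. Depth limits Egln3, P4ha2 and Ddit4, whose low-mRNA libraries of days 3 and 5 held few or no reads.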

Other observations

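Genes of mitochondrial energy metabolism showed differences of another sign or size than the glycolysis and HIF target genes. In vehicle at day 3, 13 of 14 citrate cycle genes and 16 of 16 nuclear respiratory chain genes were higher than at day 1, with median differences of 0.21 and 0.27, against -0.08 over all genes, while 31 of 32 glycolysis and HIF target genes were lower. These fitted differences are set to the level of libraries that are not low-mRNA, with the low-mRNA shift averaged over both arms. In the vehicle library of day 3 that is not low-mRNA, all 30 genes lay above both vehicle libraries of day 1. In the low-mRNA vehicle library all 30 lay below both. Cs, citrate synthase, had 5536 and 591 normalized counts in vehicle libraries of day 3, against 4703 and 4568 at day 1. By limma none of these 30 genes was called, and limma-voom also called 0. Of the 14 and the 16 genes, 3 and 2 had an unadjusted p under 0.05, as did 2129 of the 14715 genes tested. In the 8 libraries that are not low-mRNA, 12 of the 14 and 14 of the 16 were called, each of them higher, where 19.7% of all genes were called.

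In vehicle at day 5, 14 of 14 citrate cycle genes and 15 of 16 respiratory chain genes were lower than at day 1, with medians of -0.36 and -0.37, against -1.06 for the glycolysis and HIF target genes. With treatment at day 5, 11 of 14 and 15 of 16 were lower than with vehicle, with medians of -0.06 and -0.19, against 0.61 for the glycolysis and HIF target genes. By limma 0 were called in either comparison. In vehicle at day 5, 6 and 4 had an unadjusted p under 0.05, as did 2683 of the 14715 genes tested. There limma-voom called 1 and 0, where it called 7.73% of all genes. With treatment, 0 and 0 had such a p, against 1619 of the genes tested, and limma-voom called 0. In the 8 libraries 9 and 10 were called in vehicle at day 5, where 29.4% of all genes were called, and 2 and 2 with treatment, where 5.81% were, each of them lower. No test compared these lists with each other.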
